A study of Mus musculus with 59 samples.

Results

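The effect of expanded *Atxn1* in the brainstem was examined by comparing RNA-seq counts of 4 brainstem libraries from *Atxn1* 154Q/2Q mice (154Q) with 4 from wildtype mice (WT), 8 of the 59 libraries of the series. The WT and 154Q mice were of the strain labelled C57BL/6, were 10 weeks old, and gave polyA RNA of bulk brainstem tissue, 1 library per mouse. The 154Q mice carry 1 *Atxn1* allele with 154 glutamine codons at the endogenous locus and 1 mouse allele with 2, so the expanded protein is made wherever *Atxn1* is expressed. Another group of 3 brainstem libraries came from *Atxn1* 154Q[V591A;S602D]/2Q mice (154Q_AXH) of the same strain and age, in which the expanded protein also carries the substitutions V591A and S602D in its AXH domain. These libraries shared 1 model fit with the other 8.

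Spinocerebellar ataxia type 1 (SCA1) is caused by a polyglutamine expansion in ATXN1, a nuclear protein that binds the transcriptional repressor Capicua (CIC) and other DNA-binding proteins. The brainstem is affected in SCA1 along with the cerebellum. It holds the inferior olive, which sends climbing fibers to Purkinje cells, the serotonergic and noradrenergic nuclei, the motor nuclei of the cranial nerves, and the networks that control breathing and swallowing.

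WT libraries held from 75374074 to 112343574 read pairs counted on genes and 154Q libraries from 85376198 to 103086339. Each of 14 genes of hindbrain position and brainstem neurons was higher in every WT brainstem library than in every WT cerebellum or WT striatum library, for example *Hoxb5*, a hindbrain patterning gene, with a mean of 37.0 CPM (counts scaled to a common library size) in WT brainstem and 0.103 in WT cerebellum. The 154Q-75 library held 422 CPM of *Xist*, the RNA of the inactive X chromosome, and 0.43 of the Y-linked *Ddx3y*, and the other 7 libraries held at most 1.85 and at least 138 CPM. The 4 154Q mice were numbered from 69 to 76, and the WT libraries came from 2 mice of the same range (WT-70 and WT-77) and 2 of a higher one (WT-220 and WT-221). What the numbers stand for is not given in the sources used here.

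*Atxn1* itself (chromosome 13 of GRCm38, 45549755 to 45965008) was at 34.2, 38.5, 35.0, and 34.1 CPM in the WT libraries and at 44.1, 39.7, 40.6, and 43.0 in the 154Q libraries. Here and below, values run in the order of mouse numbers. The 4 154Q libraries lay above the 4 WT libraries, and the log2 fold change of 0.24 ± 0.05 (SE) did not pass the test (adjusted p = 0.0785). With DESeq2 the adjusted p was 0.00358, and without WT-77 it was 0.0426. Gene counts do not separate the expanded allele from the other.

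Tissue carried over at dissection differed among the libraries. *Ttr*, the main secreted product of the choroid plexus, was at 31.6, 20.1, 2843, and 2587 CPM in WT and at 2026, 1631, 4376, and 28.4 in 154Q, a range of 218.1-fold. Both genotypes thus held libraries with much and with little choroid plexus RNA, 2 of 4 WT and 3 of 4 154Q libraries having more than 1000 CPM. The 2 WT libraries with much were WT-220 and WT-221, so within WT the *Ttr* level and the range of mouse numbers cannot be told apart. The 23 tested genes of a choroid plexus list, summed, ranged from 700.2 to 5852 CPM in WT and from 735.3 to 8417 in 154Q. None of the 23 passed the test with edgeR, 1 had an unadjusted p below 0.05, 22 had a positive log2 fold change, and their median was 0.48. *Cbln3*, a marker of cerebellar granule cells, ranged from 14.7 to 91.4 CPM over the 8 libraries. A list of meningeal and perivascular fibroblast genes ranged from 599.7 to 1037 CPM in WT and from 836.0 to 1078 in 154Q, with 16 of 16 log2 fold changes positive, a median of 0.34, and none called with edgeR, though 4 had an unadjusted p below 0.05. In bulk tissue, fewer cells of a type and less RNA per cell cannot be told apart.

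**Figure D1:**
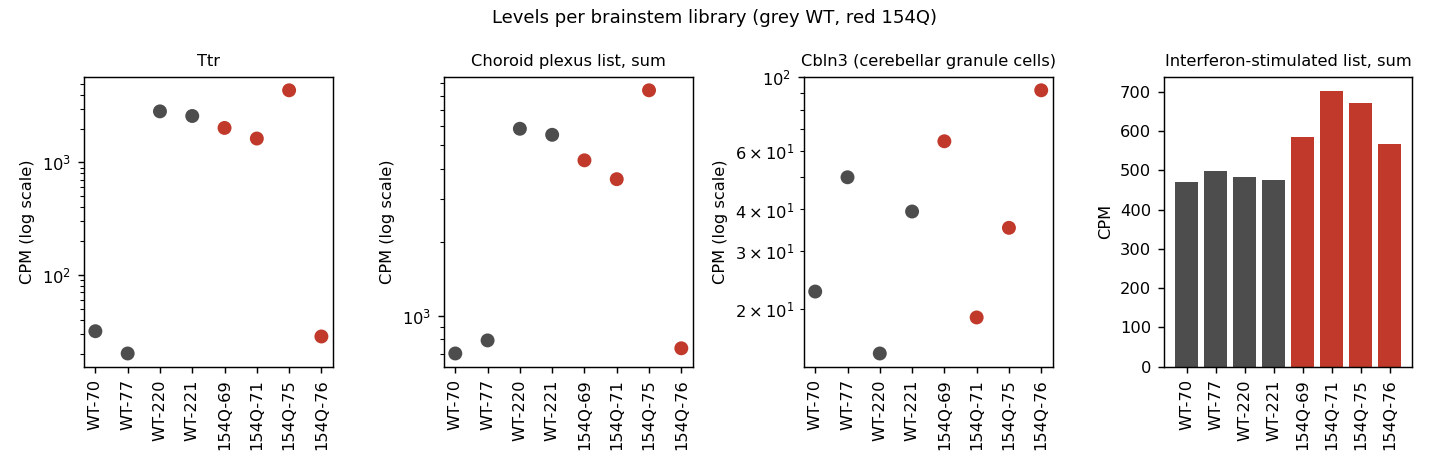
Level of Ttr, of the summed choroid plexus list, and of Cbln3 (CPM, log scale) and of the summed interferon-stimulated list (CPM, bars from 0) in each WT (grey) and 154Q (red) brainstem library. Ttr splits both genotypes, while the interferon-stimulated sum is 471 to 498 CPM in WT and 567 to 702 in 154Q.

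Of 21754 genes tested, 117 were called at an adjusted p below 0.05 (0.538%), 30 of them raised (0.138%) and 87 lowered (0.4%), and 2366 had an unadjusted p below 0.05. The changes were small. The median raised gene was 1.38-fold higher and the median lowered gene 1.26-fold lower, 34 of the 117 changed by at least 1.5-fold, and 11 by at least 2-fold. Among the 15108 genes with a mean of at least 1 CPM, the median SE of the log2 fold change was 0.062, and for 93.7% of them the 95% interval lay within a 1.5-fold change in either direction. In each of the 117 genes the 4 154Q libraries lay outside the range of the 4 WT libraries, as they did in 2.88% (higher) and 3.22% (lower) of all genes tested. The number of calls depended on the libraries: it fell to 64 without WT-70, 40 without WT-220, 38 without WT-221, 59 without 154Q-69, 55 without 154Q-71, and 63 without 154Q_AXH-209, which adds only to the estimate of spread. It was 19 when the fit held a term for the range of mouse numbers and 4 with only WT-70 and WT-77 as WT libraries. In each of these 8 fits the 117 genes all kept the sign of their log2 fold change. As the groups of these genes do not overlap, a kept sign was all but fixed in advance and is no separate support.

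**Figure D2:**
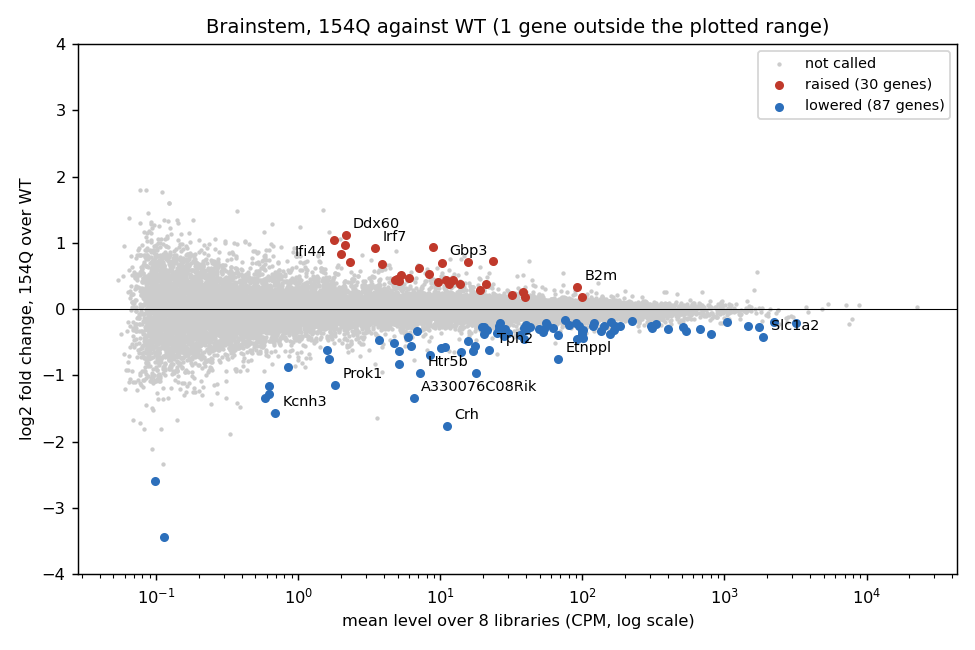
Log2 fold change of 154Q over WT (y) against mean CPM over the 8 libraries (x, log scale), with 30 raised genes in red, 87 lowered in blue, and the other tested genes in grey. Raised genes had a median WT level of 7.35 CPM and lowered genes of 44.3 CPM, and most changes lie within 2-fold.

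Interferon-stimulated genes made up 14 of the 30 raised genes. They are transcribed when type I or type II interferon, or sensing of nucleic acid inside the cell, activates STAT and IRF factors, which bind a response element built from repeated GAAA letters. Of 50 listed members, all tested, 14 were raised and none lowered, against 0.138% of all genes raised. The log2 fold change was positive in 50 of 50, with a median of 0.40 against 0.0025 over all genes, and the unadjusted p was below 0.05 in 43, against 5.13% of all genes in that direction. All 4 154Q libraries lay above all 4 WT libraries in 27 of the 50, against 2.88% of all genes.

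The promoters of 4 raised genes are shown because they hold the letters of that element. RefSeq promoters (GRCm38.p6, 250 bases before to 50 after a transcription start) were found for 22 of the 30 raised and 65 of the 87 lowered genes. The core of the element, GAAA, any 2 bases, and GAAA again, on either strand, was present in 11 of the 22, in 3 of the 65 (4.62%), and in 524 of 14062 tested genes with a promoter (3.73%). It was present in 20 of 36 listed interferon-stimulated genes with a promoter (55.6%), called or not. The count of 11 thus restates which genes were raised and is no separate support, and the search was added after values were seen. The CIC octamers TGAATGAA and TGAATGGA, on either strand, were present in 1 of the 22 (4.55%), 1 of the 65 (1.54%), and 2.08% of all. The 250 bases before the start are given 5′ to 3′ on the strand of the gene with matches in capitals, which are the reverse complement where the core lies on the other strand. In *Ddx60*, an octamer starting 59 bases before the start overlaps a core that starts 53 bases before it, and a second core lies at 19. *Kcnj10*, an astrocyte gene among those lowered, is shown for its octamer on the other strand.
Ifit3 (chr19:34583279-34583528, plus strand): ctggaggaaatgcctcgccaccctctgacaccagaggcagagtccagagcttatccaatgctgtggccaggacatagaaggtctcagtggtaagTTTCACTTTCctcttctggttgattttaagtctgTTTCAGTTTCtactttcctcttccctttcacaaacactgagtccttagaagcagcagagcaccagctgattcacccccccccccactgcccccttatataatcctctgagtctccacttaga
Gbp3 (chr3:142559794-142560043, plus strand): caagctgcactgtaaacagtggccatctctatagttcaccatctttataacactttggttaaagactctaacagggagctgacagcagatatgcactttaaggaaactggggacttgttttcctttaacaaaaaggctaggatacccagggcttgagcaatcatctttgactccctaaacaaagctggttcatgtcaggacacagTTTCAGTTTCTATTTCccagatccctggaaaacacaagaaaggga
B2m (chr2:122147437-122147686, plus strand): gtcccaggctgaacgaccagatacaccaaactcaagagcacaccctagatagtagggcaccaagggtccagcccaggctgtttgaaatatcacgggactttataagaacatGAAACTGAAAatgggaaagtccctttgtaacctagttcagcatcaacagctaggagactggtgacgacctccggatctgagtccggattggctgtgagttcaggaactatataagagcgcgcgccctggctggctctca
Ddx60 (chr8:61927837-61928086, plus strand): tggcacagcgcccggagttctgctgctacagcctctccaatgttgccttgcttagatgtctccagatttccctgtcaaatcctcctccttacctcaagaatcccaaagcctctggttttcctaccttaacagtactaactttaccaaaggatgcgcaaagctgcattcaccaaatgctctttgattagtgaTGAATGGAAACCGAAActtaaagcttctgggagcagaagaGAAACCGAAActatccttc
Kcnj10 (chr1:172340960-172341209, plus strand): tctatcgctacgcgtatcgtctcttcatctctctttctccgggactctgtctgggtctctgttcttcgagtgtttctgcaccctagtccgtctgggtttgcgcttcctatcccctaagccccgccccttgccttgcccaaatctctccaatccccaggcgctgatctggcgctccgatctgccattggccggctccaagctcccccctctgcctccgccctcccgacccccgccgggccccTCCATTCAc

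*Ifit3*, which encodes an antiviral protein that acts with IFIT1, was at 11.98, 12.7, 12.4, and 10.1 CPM in the WT libraries and at 17.6, 23.0, 17.8, and 18.9 in the 154Q libraries. The groups did not overlap, and the log2 fold change was 0.71 ± 0.09 (SE, adjusted p = 0.00514). *Gbp3*, an interferon-induced GTPase, was at 7.19, 8.17, 7.76, and 8.24 CPM in WT and 12.1, 15.2, 12.1, and 11.6 in 154Q (log2 fold change 0.70 ± 0.08, adjusted p = 0.00369). *Oasl2*, of the oligoadenylate synthetase family, rose from 6.10 ± 0.429 CPM (SD, n = 4) to 11.6 ± 2.13 (SD, n = 4), 1.91-fold. *Irf7*, a transcription factor that drives interferon genes, rose from 2.43 ± 0.300 to 4.55 ± 0.223 CPM, 1.89-fold. Both lay apart in every library, and the highest WT value of *Irf7* was 2.69 CPM against a lowest 154Q value of 4.35. *Ifi44* rose 2.06-fold, *Usp18*, the protease that removes ISG15 from proteins and restrains interferon signaling, 1.78-fold, and *Lgals3bp* 1.65-fold.

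*B2m*, the light chain of class I major histocompatibility molecules, was at 80.5, 86.8, 80.2, and 78.0 CPM in the WT libraries and 94.2, 113, 112, and 91.5 in the 154Q libraries (log2 fold change 0.34 ± 0.07, adjusted p = 0.0485). *Ddx58*, which encodes the RNA sensor RIG-I, had a log2 fold change of 0.41 ± 0.08 (adjusted p = 0.0490). The other called members were *Rtp4* (0.68), *Ifit1* (0.62), *Ifit3b* (0.52), *Trim30a* (0.46), and *Irgm1* (0.38). Reads that fit both *Ifit3* and *Ifit3b*, close copies of each other, were not counted for either, so the split between them is uncertain. *Isg15*, which encodes a ubiquitin-like modifier, had a log2 fold change of 0.53 ± 0.17 and did not pass the test. Outside the list, the raised genes included *Ddx60* (1.12 ± 0.18), a helicase that works with RIG-I, *Eif2ak2* (0.38 ± 0.06), the kinase PKR activated by double-stranded RNA, and *Erap1* (0.28 ± 0.05), a peptidase that trims peptides for class I molecules. *Irf7*, *Usp18*, *Rtp4*, *Eif2ak2*, and *Erap1* overlap exons of another gene, and strand was not used in counting.

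The summed interferon-stimulated level was 471 and 498 CPM in WT-70 and WT-77 against 567 in 154Q-76, the libraries with little *Ttr*, and 484 and 476 CPM in WT-220 and WT-221 against 586, 702, and 672 in 154Q-69, 154Q-71, and 154Q-75, those with much *Ttr*. The 154Q libraries were higher within both sets. As the sums of the genotypes do not overlap, this held for any split of the libraries and is no separate support. In the set with much *Ttr*, genotype and the range of mouse numbers are not separated. The microglia list, 28 genes, had no call, a median of 0.017, and sums of 1643 to 1795 CPM in WT and 1472 to 1694 in 154Q, which overlapped. *Cx3cr1* and *P2ry12*, which define resting microglia, had log2 fold changes of -0.02 and 0.03. The meningeal list was higher in the median by 0.34, as given above, and its part in the interferon result was not tested. The number of interferon-stimulated genes called was 7 without WT-70, 6 without WT-77, 5 without WT-220, 4 without WT-221, and 6 without either 154Q-71 or 154Q-75, while the median stayed between 0.32 and 0.44 with each single WT or 154Q library left out. With only WT-70 and WT-77 as WT libraries, none of the 50 was called with edgeR, 49 were positive, and the median was 0.41.

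**Figure D3:**
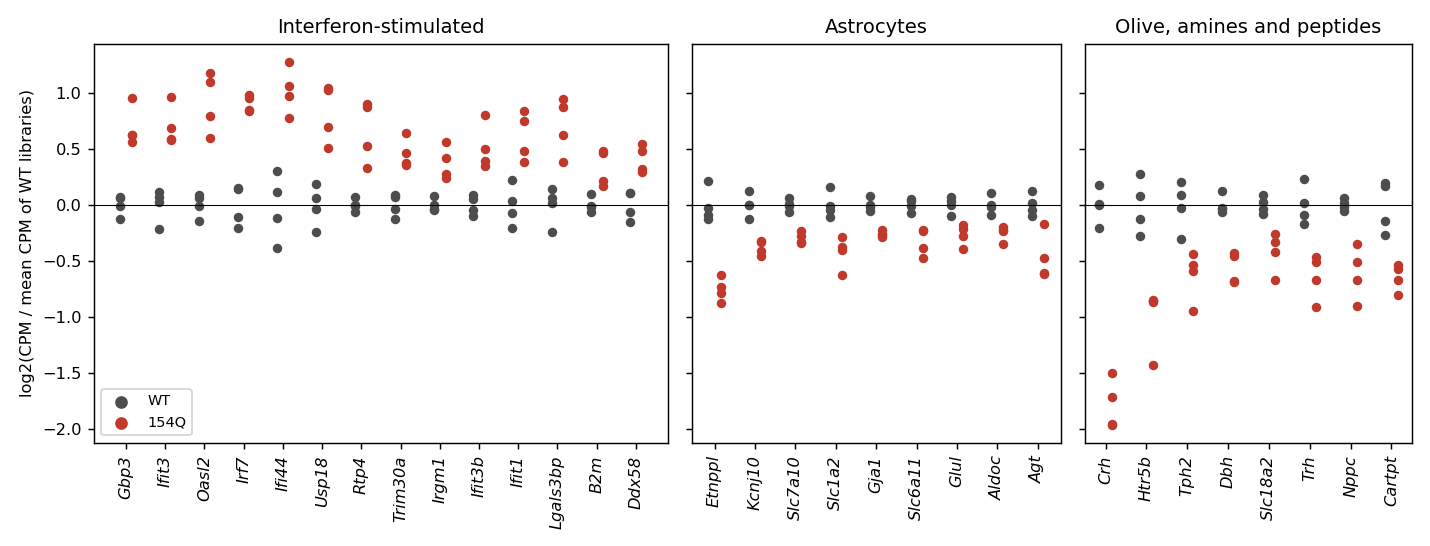
Log2 of the CPM of each library over the mean CPM of the WT libraries, for called interferon-stimulated genes, called astrocyte genes, and 8 called genes of the inferior olive, monoamine neurons, and neuropeptides (WT grey, 154Q red). In each gene plotted the 4 red points lie on 1 side of the 4 grey points, as they do in every called gene, so this is no separate support.

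Of the gene lists examined, the astrocyte list held the most lowered genes. Astrocytes take up glutamate, GABA, and potassium from the space around synapses, are joined by gap junctions, and convert glutamate to glutamine. Of 26 listed genes, 10 were lowered and none raised, against 0.4% of all genes lowered, with a median log2 fold change of -0.24. Their summed level ranged from 12667 to 13578 CPM in WT and from 10797 to 11256 in 154Q, without overlap.

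*Etnppl*, an astrocyte enzyme that breaks down phosphoethanolamine, was at 83.3, 98.8, 78.1, and 80.0 CPM in the WT libraries and at 55.0, 51.2, 49.2, and 46.3 in the 154Q libraries. It had the largest drop on the list among called members (log2 fold change -0.75 ± 0.07, adjusted p = 0.00169), and it was called in all 22 alternative settings. *Slc1a2*, the main glutamate transporter of the forebrain and brainstem, was at 1990, 2402, 2128, and 2081 CPM in WT and 1656, 1623, 1391, and 1762 in 154Q (-0.42 ± 0.07, adjusted p = 0.0207). *Kcnj10*, the inward rectifier Kir4.1 through which astrocytes clear potassium, fell from 908 ± 63.8 to 697 ± 30.5 CPM (SD, n = 4 each, -0.38 ± 0.06). These 3 genes did not overlap between the genotypes in any library.

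The transporter genes *Slc6a11* (GABA transporter 3, -0.33) and *Slc7a10* (-0.30), the gap junction gene *Gja1* (-0.26), the enzymes *Glul* (glutamine synthetase, -0.26) and *Aldoc* (-0.25), and *Agt* (angiotensinogen, -0.46) also fell. Members that did not pass included *Slc1a3*, the second glutamate transporter, at 0.09 ± 0.09, *S100b* at 0.04 ± 0.06, *Sox9*, the nuclear factor of astrocyte identity, at -0.02 ± 0.09, *Aldh1l1* at -0.09 ± 0.06, *Aqp4* at -0.20 ± 0.06, and *Gfap*, which rises in reactive astrocytes, at -0.24 ± 0.13. Lowered genes outside the list that are known from astrocytes were *Htra1* (-0.37), *Itih3* (-0.44), *Plpp3* (-0.26), *Ntsr2* (-0.25), *Sparcl1* (-0.21), and *Ttyh1* (-0.30), of which *Itih3*, *Plpp3*, *Ntsr2*, and *Sparcl1* were chosen after their values were seen. *Slc1a2*, *Slc7a10*, *Glul*, and *Ttyh1* overlap exons of another gene. The number of astrocyte genes called was 5 without WT-70, 6 without WT-77, 3 without WT-220, WT-221, or 154Q-69, and 4 without 154Q-71, and it was 1 with only WT-70 and WT-77 as WT libraries, where the median was -0.20.

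Of 6 genes known from the inferior olive 2 were lowered, against 0.4% of all genes, and *Crh* had the largest decrease of the called genes with at least 1 CPM in WT. *Crh*, the peptide corticotropin-releasing hormone made by olivary neurons that project to the cerebellum, was at 14.8, 17.1, 19.3, and 17.2 CPM in the WT libraries and at 4.39, 4.41, 6.04, and 5.20 in the 154Q libraries. It was 3.41-fold lower, with a 95% interval of the log2 fold change from -1.99 to -1.55, and it was called in all 22 settings. *Htr5b* (chromosome 1, 121509842 to 121528465), a serotonin receptor gene of the olive, was at 7.86, 8.75, 11.6, and 10.1 CPM in WT and 3.55, 5.27, 5.29, and 5.23 in 154Q (-0.97 ± 0.13, adjusted p = 0.0084). The lowest WT value of each gene lay above its highest 154Q value. The other 4 genes of the 6 on the olive list did not pass the test: the log2 fold change was -0.46 ± 0.14 for *Pou4f1*, a transcription factor of olivary neurons, -0.44 ± 0.13 for *C1ql1*, the climbing fiber protein, -0.17 for *Gjd2*, the connexin that couples olivary neurons, and -0.06 for *Calb1*, which other neurons also express. The summed olive list overlapped, at 160.4 to 217.6 CPM in WT and 145.8 to 185 in 154Q.

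Genes of monoamine neurons were lower too. *Tph2*, the enzyme that starts serotonin synthesis in raphe neurons, was at 30.9, 21.7, 28.6, and 26.4 CPM in the WT libraries and 18.5, 17.9, 13.9, and 19.8 in the 154Q libraries (-0.62 ± 0.12, adjusted p = 0.0389). *Dbh*, which makes noradrenaline from dopamine in the locus coeruleus, fell from 7.35 ± 0.448 to 4.99 ± 0.476 CPM (-0.56 ± 0.09, adjusted p = 0.0207). *Slc18a2*, the vesicle transporter both cell types share, fell from 32.1 ± 1.67 to 24.1 ± 2.90 CPM (-0.41 ± 0.08, adjusted p = 0.0359). Against 0.4% of all genes lowered, of 11 serotonergic genes 2 were lowered and 10 were negative, with a median of -0.23, and of 8 noradrenergic genes 2 were lowered and 8 were negative, with a median of -0.40. The serotonin transporter *Slc6a4* (-0.65 ± 0.15), the noradrenaline transporter *Slc6a2* (-0.95 ± 0.22), and *Th* (-0.39 ± 0.08) did not pass the test, although the groups did not overlap. Groups lay apart in that direction in 3.22% of all genes. The factors that define these cells had log2 fold changes of -0.27 (*Fev*), -0.14 (*Gata2*), and -0.24 (*Phox2a*), none called. Summed serotonergic and noradrenergic levels did not overlap either, at 168 to 194 against 148 to 159 CPM and 85.7 to 95.7 against 67.8 to 73.9 CPM. Both lists hold *Slc18a2* and *Ddc*, so their results are not independent. With edgeR no gene of either list was called without WT-70, without WT-220, without WT-221, or with only WT-70 and WT-77 as WT libraries, while 4 and 5 genes had an unadjusted p below 0.05 with all libraries and DESeq2 called 4 of each list. The serotonergic list had no call and the noradrenergic list 1 in the fit of only the WT and 154Q libraries. The serotonergic list had 1 call without 154Q-69 and 1 without 154Q-71, and the noradrenergic list 1 without WT-77 and 0 without 154Q-71. A list of midbrain dopamine neuron genes, which also holds *Th*, was lower in sum without overlap, at 325 to 363 CPM in WT and 288 to 318 in 154Q. Of its 4 tested genes none was called with edgeR, and 2 had an unadjusted p below 0.05, both lowered. Whether tissue carried over plays a part in these values was not tested.

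Motor neuron genes (14), breathing control genes (11 tested), and glutamatergic genes (33) had no call, with medians of -0.09, -0.06, and -0.05. *Chat*, the acetylcholine enzyme of motor neurons, was at 20.2 ± 2.21 CPM in WT and 18.6 ± 2.75 in 154Q. *Slc6a5*, the glycine transporter of inhibitory brainstem neurons, was at 593.5 ± 21.6 and 539.8 ± 70.7 CPM, and *Slc17a6*, the glutamate transporter of brainstem excitatory neurons, at 321 ± 10.9 and 332 ± 15.5. These differences were within the spread between libraries. Of 25 glycinergic and GABAergic genes only the astrocyte gene *Slc6a11* was called.

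Among 32 tested neuropeptide genes 4 were lowered, against 0.4% of all genes, none raised, and the median was -0.15. Besides *Crh* they were *Trh*, thyrotropin-releasing hormone, at 20.7, 19.3, 24.1, and 18.2 CPM in WT and 12.95, 10.96, 14.5, and 14.9 in 154Q (-0.63 ± 0.11), *Nppc*, the C-type natriuretic peptide (-0.59 ± 0.09), and *Cartpt* (-0.63 ± 0.13). Calls fell to 2 without WT-70, 154Q-69, or 154Q-71 and to 1 without WT-220. In the libraries with *Ttr* above 1000 CPM, 17 of the 32 were positive, 15 negative, and the median was 0.0048, and without 154Q-69 the median was -0.065. *Prok1*, a secreted protein that signals through G protein-coupled receptors, fell from 2.51 ± 0.288 to 1.13 ± 0.220 CPM (-1.14 ± 0.16). *Hrh3*, the histamine receptor that inhibits transmitter release, fell from 12.9 ± 0.439 to 8.65 ± 0.236 CPM (-0.57 ± 0.06).

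Ion channel genes that changed were lowered. Of 60 potassium channel genes 5 were lowered, against 0.4% of all genes, and none raised, with a median of -0.08. *Kcnh3*, a voltage-gated channel gene of low level, was at 0.838, 1.31, 0.953, and 0.994 CPM in WT and 0.358, 0.405, 0.304, and 0.324 in 154Q (-1.57 ± 0.22, adjusted p = 0.0084). It separated the genotypes in every library. *Kcnc1*, the fast channel Kv3.1 of neurons that fire at high rates, fell from 342 ± 4.67 to 281 ± 14.5 CPM (-0.28 ± 0.04), *Kcnh2* had a change of -0.21, and the astrocyte gene *Kcnj10*, given above, is on this list too. *Kcng1*, a modifying subunit not on the list, fell from 17.1 ± 1.24 to 10.9 ± 1.02 CPM (-0.65 ± 0.08). Summed over the list, potassium channels were at 6457 to 6893 CPM in WT and 5490 to 6419 in 154Q.

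Of 42 calcium and sodium channel and calcium handling genes, 4 were lowered, against 0.4% of all genes: *Scn4b*, a sodium channel subunit (-0.27 ± 0.04), the calcium-binding proteins *Cabp7* (-0.31 ± 0.05) and *Cabp1* (-0.20 ± 0.04), and *Calb2*, calretinin (-0.34 ± 0.07). *Scn4b* was at 547, 574, 554, and 550 CPM in WT and 462, 460, 434, and 494 in 154Q, again apart in every library. This list kept 2 calls without any 1 of the WT libraries or of 154Q-69, 154Q-71, and 154Q-75. *Kcnh3* and *Cabp7* overlap exons of another gene.

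Of 15 tested genes of ATXN1 and its partner factors none was called, 1 had an unadjusted p below 0.05 (*Atxn1*), and the median was 0.03. The log2 fold change was -0.01 ± 0.06 for *Cic*, 0.05 ± 0.06 for *Atxn1l*, the ATXN1 paralog, -0.13 ± 0.10 for *Rfx1*, 0.04 ± 0.05 for *Zkscan1*, and 0.08 ± 0.10 for *Rora*, with 95% intervals within -0.34 to 0.30. *Kat5*, the acetyltransferase TIP60, was at 0.05 ± 0.05. Of 21 genes known to be repressed by CIC or induced by MAPK signaling none was called either, and the median was 0.05. The log2 fold change was positive in 14 and negative in 7. An unadjusted p below 0.05 was found for 3, all of them positive, against 5.13% of all genes in that direction. *Etv4*, the best known CIC target, was at 9.87 ± 0.770 CPM in WT and 12.7 ± 0.911 in 154Q (0.36 ± 0.08, adjusted p = 0.0887), and *Etv5* had a log2 fold change of 0.05 ± 0.06.

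Of 31 oligodendrocyte and myelin genes 1 was lowered, *Gpr17*, a receptor of differentiating oligodendrocytes, from 45.3 ± 4.29 to 33.0 ± 3.25 CPM (-0.46 ± 0.08, adjusted p = 0.0241). The list was negative in 27 of 31, with a median of -0.14, and 14 had an unadjusted p below 0.05 in that direction, against 5.75% of all genes. *Sox10*, the lineage factor, had a log2 fold change of -0.28 ± 0.06 and *Mbp* of -0.15 ± 0.05, and neither passed. Cholesterol synthesis (25 genes), heat shock (24), unfolded protein and integrated stress response (28), synaptic vesicle (28), immediate early (23), and circadian clock genes (19) had no call, with medians from -0.11 to -0.000255. The widest among them was *Hspa1b*, an inducible chaperone, at -1.64 ± 0.43, which did not pass. Of 17 tested glucocorticoid-responsive genes 2 were lowered, against 0.4% of all genes, *Etnppl* and *Htra1*. Summed, this list was at 885 to 1012 CPM in WT and at 761, 754, 1061, and 822 in the 154Q libraries, the highest value being that of 154Q-75. No ependymal, endothelial, or blood gene was called, with medians of -0.03, 0.017, and -0.41. Of 10 blood genes 8 were negative and 5 had an unadjusted p below 0.05 in that direction, while their sums overlapped between the genotypes. In the ependymal and endothelial lists that p was found for 2 of 13 and 2 of 15, all lowered. The red cell gene *Hbb-bs* was at 75.3 ± 15.4 CPM in WT and 53.1 ± 14.7 in 154Q.

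Other genes were named by their p values or fold changes and belong to none of the lists. *Ppp1r1c*, an inhibitor of protein phosphatase 1, was at 1.33, 1.29, 1.63, and 1.52 CPM in WT and 2.92, 3.01, 2.32, and 2.96 in 154Q (0.97 ± 0.12, adjusted p = 0.00403). *Slc2a4*, the insulin-responsive glucose transporter GLUT4, rose from 1.77 ± 0.110 to 2.90 ± 0.204 CPM (0.70 ± 0.09), *Stom*, a membrane scaffold protein, from 10.1 ± 0.385 to 13.1 ± 0.793 CPM (0.37 ± 0.06), and *Cd1d1*, which presents lipid antigens, from 4.39 ± 0.289 to 6.27 ± 0.459 CPM (0.51 ± 0.09). *Chil1* fell by 0.49 on the log2 scale, *Zmynd8*, a chromatin reader, by 0.26, *2310022B05Rik* by 0.34, *E330020D12Rik* by 0.75, and the collagen gene *Col6a5* by 1.35. *A330076C08Rik*, an uncharacterized gene 1.33 megabases from *Atxn1* on chromosome 13, was at 8.58, 12.6, 7.55, and 8.48 CPM in WT and 4.27, 3.98, 3.49, and 3.08 in 154Q (-1.34 ± 0.15). Of 881 genes tested on chromosome 13, 5 were called (0.568%), close to the 0.538% of all genes. The fitted decreases of *5730435O14Rik* (-3.44 ± 0.41) and *Fkbp6* (-2.59 ± 0.52) rested on WT means of 0.210 and 0.170 CPM.

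Choroid plexus RNA was accounted for in 4 ways. With the *Ttr* level of each library as a covariate, 108 genes were called (0.496% of those tested), 31 of them raised (0.143%) and 77 lowered (0.354%), and 96 were among the 117. With the mean of the choroid plexus list as the covariate 126 were called, 106 of them among the 117, and with the list taken out before scaling 118, including all 117. In the 7 libraries with more than 1000 CPM of *Ttr* (2 WT, 3 154Q, and 2 154Q_AXH), a setting added after seeing the data, 12 were called, 9 of them among the 117. The WT mice of that setting were all of the higher range of mouse numbers and its 154Q mice all of the lower one. Genotype and range are thus not separated there. The median log2 fold change was 0.46 over the 30 raised genes in the main fit, 0.46 with the *Ttr* covariate, and 0.53 in the libraries with much *Ttr*, and over the 87 lowered genes -0.34, -0.33, and -0.35. With the *Ttr* covariate, 12 interferon-stimulated and 10 astrocyte genes were called and the olive, serotonergic, and noradrenergic lists kept 2 each. *B2m* (adjusted p = 0.0598), *Ddx58* (0.0589), *Calb2* (0.0506), *Cartpt* (0.0601), and *Fkbp6* (0.0632) no longer passed.

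**Figure D4:**
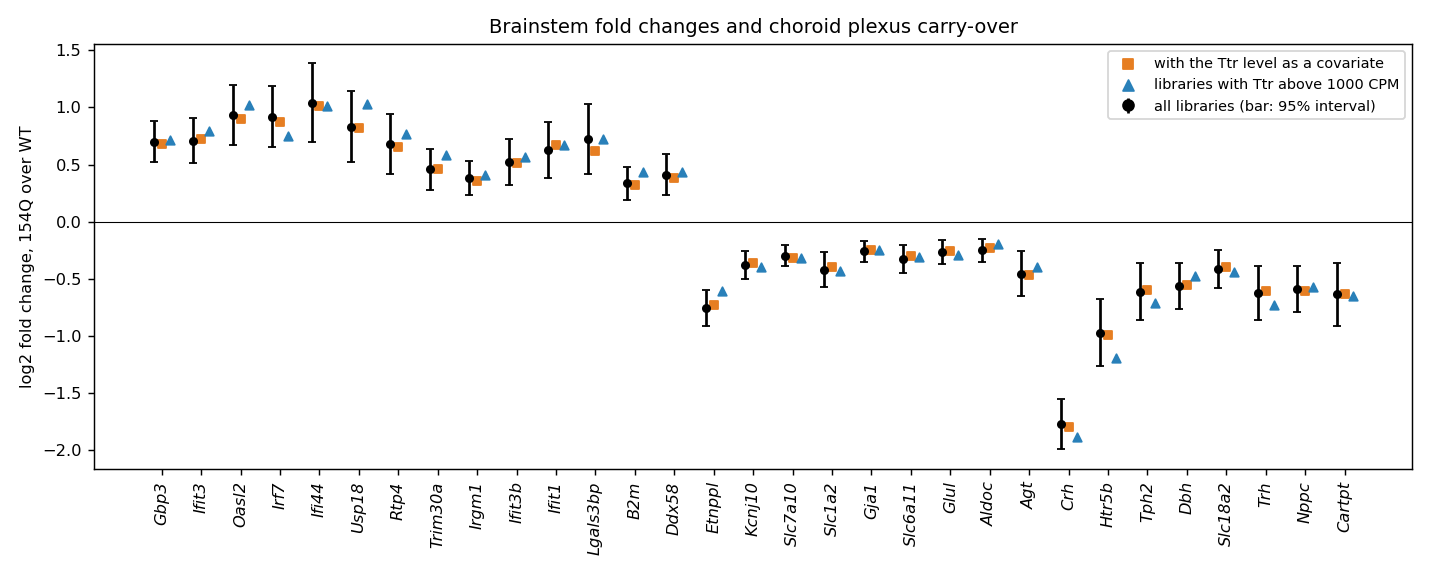
Log2 fold change of 154Q over WT for called list members, from all libraries (black, bar 95% interval), with the Ttr level as a covariate (orange), and from the libraries with Ttr above 1000 CPM (blue). For Crh the 3 values are -1.77, -1.79, and -1.88, and for Ifit3 0.71, 0.73, and 0.79.

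In the 154Q_AXH libraries, compared with the same WT libraries, 3 genes were called (0.0138% of those tested), and none differed between 154Q_AXH and 154Q with edgeR, where 1163 (5.35%) had an unadjusted p below 0.05 and DESeq2 called 33. Values are set side by side, since both contrasts share the WT libraries. All 154Q_AXH mice were of the higher range of mouse numbers and all 154Q mice of the lower one. Genotype and range are thus not separated between the 2 mutants, and the part of the range in their differences was not tested. *Ifit3* was at 15.5, 15.3, and 16.02 CPM in the 3 154Q_AXH libraries, with a log2 fold change against WT of 0.40 against 0.71 in 154Q. The same values were 0.31 and 0.70 for *Gbp3*, 0.15 and 0.83 for *Usp18*, and 0.05 and 0.41 for *Ddx58*. For *Etnppl* they were -0.42 and -0.75, for *Slc1a2* -0.33 and -0.42, and for *Kcnj10* -0.29 and -0.38. *Crh* was at 6.33, 6.61, and 6.43 CPM, with -1.41 and -1.77, and *Htr5b* had -0.81 and -0.97, *Slc2a4* 0.68 and 0.70, and *Ppp1r1c* 0.85 and 0.97. Over all 30 raised genes the median log2 fold change against WT was 0.19 in 154Q_AXH and 0.46 in 154Q. Over the 87 lowered genes it was -0.23 and -0.34. All of these genes were called on their 154Q values, so smaller values in 154Q_AXH can come from that choice alone. The single genes given were also chosen after their values were seen, and no difference between the 2 mutants passed the test (lowest adjusted p over all genes 0.369).

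The same mice gave cerebellum and striatum libraries, and the 154Q effects were compared in fits of 16 libraries, brainstem with each other region. Of 116 brainstem calls tested in the striatum fit, 55 were called there in the same direction (47.4%, and 1.8% of the 3049 called there) and 1 in the opposite direction. Of all genes, 14.4% were called in the striatum in either direction. In the cerebellum 22 of 116 were called in the same direction (19.0%, and 2.24% of the 983 called there) and 1 in the opposite one. There, 4.47% of all genes were called in either direction. Of the 117, 8 differed in effect from the cerebellum and 14 from the striatum, against 0.473% and 1.67% of all genes. The brainstem values that chose these genes are part of those tests. With the mouse as a replicate block, the calls over all genes fell from 104 to 31 for the cerebellum and from 354 to 175 for the striatum.

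Interferon-stimulated genes had a median of 0.15 in the cerebellum and 0.04 in the striatum, with 2 raised and 1 lowered of 50 in the first and 3 raised of 49 in the second. Over all genes, 410 were raised and 573 lowered of 22006 in the cerebellum, and 1158 were raised of 21191 in the striatum. *Gbp3* had a log2 fold change of -0.13 ± 0.12 in the striatum, which differed from the brainstem (adjusted p = 0.0152, and 0.0255 with the mouse as a replicate block). *Ifit3*, at -0.05 ± 0.12 there (difference adjusted p = 0.0227, blocked 0.0789), and *B2m*, at -0.19 ± 0.07 (0.0146, blocked 0.0566), lost the difference under the block. No difference from the cerebellum was called. *Irf7* was raised in the cerebellum as well (0.54 ± 0.12) and *Oasl2* in the striatum (0.61 ± 0.19).

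Astrocyte genes had medians of -0.11 in the cerebellum and -0.28 in the striatum, with 2 of 26 lowered in the cerebellum, 13 lowered and 1 raised in the striatum, and no difference from the brainstem called. Over all genes, 573 of 22006 were lowered in the cerebellum, and 1891 of 21191 were lowered and 1158 raised in the striatum. *Calb2* was raised in the cerebellum (0.51 ± 0.05) and differed from the brainstem (adjusted p = 1.4e-05, blocked 0.00201). *Nppc* (0.25 ± 0.13), *Slc2a4* (-0.11 ± 0.10), and *Stom* (-0.13 ± 0.07) in the cerebellum also differed from the brainstem, with adjusted p values of 0.0426, 0.0299, and 0.0282, and blocked values of 0.111, 0.0897, and 0.0931. *Scn4b* (-2.59 ± 0.24), *Cabp7* (-1.24 ± 0.07), and *Hrh3* (-1.76 ± 0.09) fell by more in the striatum, and *Kcnh3* (-0.66 ± 0.09) by less, each with a difference called with and without the block. No difference in effect was called for *Crh*, *Htr5b*, *Tph2*, or *Dbh* against either region, where their levels were lower. *Crh* was at 17.2 CPM in WT brainstem, 0.307 in WT cerebellum, and 6.49 in WT striatum.

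**Figure D5:**
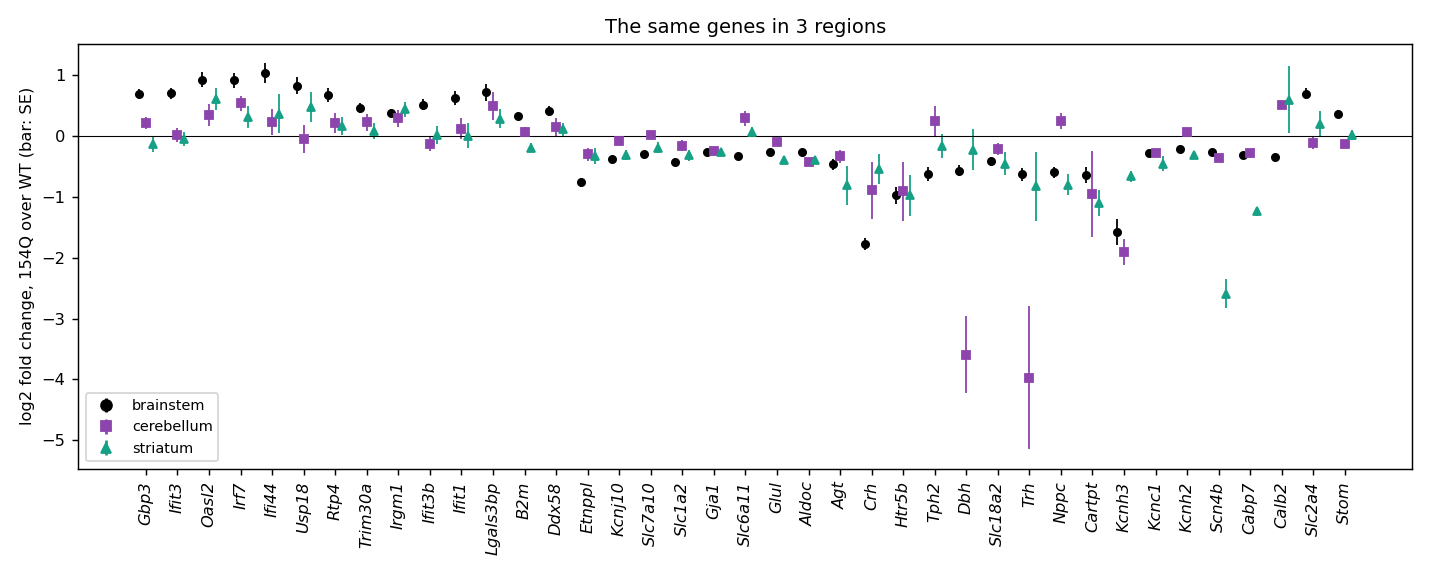
Log2 fold change of 154Q over WT (bar SE) for called genes in brainstem (black), cerebellum (purple), and striatum (green). Gbp3 is at 0.70 in the brainstem and -0.13 in the striatum, Scn4b and Cabp7 are lowest in the striatum, and the wide bars of Dbh and Trh in the cerebellum go with levels near 0.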

How the data were processed

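PolyA RNA of brainstem was sequenced per mouse, and the deposited values are raw counts per gene made without strand by the authors, who used Trimmomatic 0.36 for trimming and STAR 2.7.2d with GENCODE annotation for alignment to GRCm38.p6. Their own tests used DESeq2. Reads placed at several loci were not counted. Gene positions were read from a later GENCODE release of the same build.

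Counts of the 11 brainstem libraries were fitted together with edgeR 4.0.16 (R 4.3.3, limma 3.58.1): filterByExpr, TMM scaling, and the quasi-likelihood test, with Benjamini-Hochberg adjusted p below 0.05 as a call. All adjusted p values are from this test unless DESeq2 1.42.0 is named. CPM values use TMM library sizes, SE is that of the log2 fold change, and intervals are 95%. The script was tested on simulated data. Depth was 75374074 to 112343574 read pairs on genes per library. Region effects were compared in fits of brainstem with cerebellum or striatum libraries of the same mice by label, with and without the mouse as a block. Correlations of a mouse's deviations between regions ran from -0.46 to 0.293.

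Named genes were the 14 with the lowest p per direction a mean of at least 1 CPM, and groups that did not overlap, the 5 largest changes per direction, called list members, and genes of ATXN1 partners. Genes and lists were chosen with earlier results of these data known. The interferon motif search and the fit of libraries with *Ttr* above 1000 CPM were added after values were seen. Promoter sequences are from RefSeq (GRCm38.p6). Mice are separate animals, and the labels give no sex. Some genes that the rule names are not reported here, while counts and sums over lists include them.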

Additional observations from a re-analysis of the deposited data

Results flagged for a closer look

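Of 230 groups of 4 libraries examined, 10 had 1 library far from the other 3, and chance gives about 1 in 20. In 154Q, these were *Gbp3* at 15.2 CPM in 154Q-71, *Ppp1r1c* at 2.32 in 154Q-75, *Htr5b* at 3.55 in 154Q-69, and *Ywhab* at 522.2 in 154Q-69. *Htra1* stood apart in WT-70, at 185 CPM. The 154Q-75 library stood apart in *Xist* (421.5 CPM), *Ddx3y* (0.43 CPM), and the summed sex-linked list (422.3 CPM). Summed breathing control genes were at 137.1 CPM in WT-221, and summed endothelial and pericyte genes at 695.6 CPM in 154Q-76.

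The 154Q effect differed between regions, tested as an interaction, in the named genes that follow. The brainstem log2 fold change minus that of the cerebellum was 0.81 for *Slc2a4*, 0.50 for *Stom*, -0.85 for *Nppc*, and -0.85 for *Calb2*, of which only *Calb2* kept the call with the mouse as a replicate block (adjusted p = 0.00201, against 0.0897, 0.0931, and 0.111 for *Slc2a4*, *Stom*, and *Nppc*). Against the striatum the difference was 0.83 for *Gbp3*, 0.75 for *Ifit3*, 0.52 for *B2m*, 1.19 for *Hrh3*, 0.92 for *Cabp7*, 2.32 for *Scn4b*, -0.91 for *Kcnh3*, and -3.62 for *5730435O14Rik*. With the block, *Ifit3* (0.0789), *B2m* (0.0566), and *5730435O14Rik* (0.0593) lost the call, and the other 5 kept it.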

How the results depend on the processing

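Against 117 calls in the brainstem, DESeq2 called 395, a fit of only the WT and 154Q libraries 59, a term for the range of mouse numbers 19, only WT-70 and WT-77 as WT libraries 4, first strand counts 70, a test against a fold of 1.2 10, and the libraries with *Ttr* above 1000 CPM 12. Leaving out 1 library gave 38 to 117. The causes were not tested, apart from fewer libraries in some fits. None of the 62 called genes among those named changed the sign of its log2 fold change in a setting that gave a value. Their groups do not overlap, so fits that leave out libraries could hardly reverse a sign. Of the 18 named genes that were not called, 12 changed sign in at least 1 setting, *Cic* and *Ttr* among them. For the values of single genes under the alternatives, 446 no longer passed, 2 newly passed, and 1303 stayed on their side of the threshold.

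Interferon-stimulated calls (14) became 28 with DESeq2, 6 with only the WT and 154Q libraries, 7 with first strand counts, 2 with the term for mouse numbers, 0 with WT-70 and WT-77 alone, 0 in the libraries with much *Ttr*, and 4 to 15 with 1 library left out. Astrocyte calls (10) became 4, 1, 1, and 2 with only the WT and 154Q libraries, the term for mouse numbers, WT-70 and WT-77 alone, and the libraries with much *Ttr*, and 3 to 11 with 1 library left out. Neuropeptide calls (4) were 1 in each of the last 3 of these settings and 1 to 4 with 1 library left out. Potassium channel calls (5) were 1, 0, and 2 there, 3 with first strand counts, and 4 to 5 with 1 library left out. Calcium and sodium channel calls (4) were 1, 0, and 0 there, 2 with first strand counts, 2 with *Xist* as a covariate, and 2 to 4 with 1 library left out.

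Calls of 154Q_AXH against WT (3) became 78 with DESeq2 and 1 to 4 with 1 library left out, and those against 154Q (0) became 33 with DESeq2, 9 with the *Ttr* covariate, and 0 to 4 with 1 library left out. Region differences fell from 104 to 31 (cerebellum) and from 354 to 175 (striatum) with the replicate block. With 1 library left out they were 55 to 96 for the cerebellum, at 68 or fewer without WT-70, WT-220, WT-221, 154Q-69, 154Q-75, or 154Q-76, and 202 to 257 for the striatum, at 234 or fewer without any 1 WT library, 154Q-71, or 154Q-75. No paired analysis was possible because WT and 154Q brainstem libraries share no mouse number. Genes under 1 CPM had a median SE of 0.302 on the log2 scale, so changes in them were less measurable.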
